A study of Homo sapiens with 4 samples.

Results

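The genes described here are 10 components of the RNA interference and microRNA machinery: DROSHA, XPO5 and DICER1, the 4 Argonaute genes AGO1 to AGO4, and the 3 TNRC6 genes TNRC6A, TNRC6B and TNRC6C. They were picked by symbol as known parts of the pathway, by a rule that uses no measured value, from the 62069 genes of the deposited table. All 10 passed the filter on low counts and were among the 17172 genes tested. RNA was sequenced from KMS11, an established line derived from multiple myeloma, a plasma cell malignancy. All cells received lentivirus (polybrene, 10 µg/mL), and RNA was collected 72 h after fresh medium replaced the virus. The control group has 2 libraries, whose columns in the deposited table carry the name shScr, and the group labelled NSD2 knockdown has 2 libraries with shM2 in their titles. Uninfected cells were not analysed here, so a response to virus or to an shRNA as such, which both groups share, cannot be read from these data.

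Small RNA silencing is a chain of processing steps followed by target repression. DROSHA cuts the primary microRNA transcript in the nucleus, XPO5 (exportin 5) carries the resulting hairpin to the cytoplasm, and DICER1 trims the hairpin to a short duplex. An Argonaute protein takes up one strand and uses it to find target RNAs, and TNRC6 (GW182) proteins bind Argonaute and recruit the deadenylases that shorten the target's tail. Vector-borne shRNAs use the same export, dicing and Argonaute steps, and among human Argonautes AGO2 is the principal one able to cut a perfectly matched target.

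Total counted fragments ranged from 46728940 to 55059566 per library, and mitochondrial genes took 5.82% to 6.81% of them. Plasma cell markers were present (all 7 of the list were tested, with summed levels from 2764 to 3142 CPM, fragment counts scaled to library size), while the markers of T cells, myeloid cells and fibroblasts summed to at most 4.45 CPM per list and library. Of the 7 plasma cell markers 2 were lower in the knockdown libraries by edgeR and 0 were higher, against 4.19% and 1.74% of all tested genes. SLAMF7 went from 236 and 272 to 110 and 129 CPM (log2 fold change -1.09, adjusted p = 0.000952), and CD38, with 78, 33, 14 and 2 fragments and so nearly absent, had a log2 fold change of -2.82 (adjusted p = 0.0284, up to 0.0525 over the alternatives). The part of these markers in the results below was not tested. In each of the other 3 lists 1 of 4 genes passed the filter, and CD3D and LUM had no fragment in any library. NSD2, the histone methyltransferase gene targeted in the second group, gave 1120 and 1471 CPM with control virus, against 919 and 1155 CPM under the knockdown label. It did not pass the edgeR test (log2 fold change -0.32, SE 0.15, adjusted p = 0.244), and the group is therefore called by its label. Over the alternatives the adjusted p of NSD2 lay between 0.0173 and 0.960. Such ranges of adjusted p, for each gene in the report, leave out the fits with a replicate block. Whether the libraries within a group are separate cultures is not given in the labels. The p-values here set the group difference against the spread of these samples, which may be technical only.

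TNRC6C was the single component of the machinery that passed the test, with a fall of 39.6%. Its relatives TNRC6A and TNRC6B, the 4 Argonautes, DROSHA, XPO5 and DICER1 did not pass, which does not show that they stayed the same. Of the 10 genes 1 was lower and 0 were higher in the knockdown libraries by the quasi-likelihood test of edgeR (adjusted p below 0.05), against 4.19% of all tested genes lower, 1.74% higher and 5.93% in either direction. At an unadjusted p below 0.05 the count was also 1 of 10, where 22.5% of all tested genes stood. The groups did not overlap in 2 of the 10 genes, TNRC6C and XPO5, against 53.2% of all tested genes. DESeq2 likewise called 1 of the 10 lower (4.63% of its genes) and 0 higher (2.26%). With 1 call among 10 genes, the count says nothing particular about the machinery as a group.

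As background on the genes that bear on this comparison, the 250 bases before an annotated start are given for TNRC6C, the gene that fell, and for its 2 paralogs. Sequences are those of RefSeq on GRCh38.p14, plus strand in each case. Capitals mark CCAAT, or ATTGG where it lies on the other strand. TNRC6C has 4 start windows in that table, and the one richest in CpG is shown. Its place relative to the counted gene model, which is on GRCh37, was not checked, so it may lie apart from that model. The count data do not tell which start was used.

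TNRC6A, chr16:24729401-24729650: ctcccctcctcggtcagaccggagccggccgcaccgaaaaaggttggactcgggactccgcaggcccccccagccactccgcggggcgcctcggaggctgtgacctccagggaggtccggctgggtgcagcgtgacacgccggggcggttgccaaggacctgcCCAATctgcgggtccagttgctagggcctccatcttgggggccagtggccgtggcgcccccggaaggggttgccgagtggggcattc
TNRC6B, chr22:40044584-40044833: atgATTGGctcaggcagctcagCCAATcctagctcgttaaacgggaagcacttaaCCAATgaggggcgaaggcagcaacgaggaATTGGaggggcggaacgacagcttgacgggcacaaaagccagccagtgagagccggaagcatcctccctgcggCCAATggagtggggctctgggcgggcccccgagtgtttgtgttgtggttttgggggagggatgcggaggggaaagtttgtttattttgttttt
TNRC6C, chr17:77958453-77958702: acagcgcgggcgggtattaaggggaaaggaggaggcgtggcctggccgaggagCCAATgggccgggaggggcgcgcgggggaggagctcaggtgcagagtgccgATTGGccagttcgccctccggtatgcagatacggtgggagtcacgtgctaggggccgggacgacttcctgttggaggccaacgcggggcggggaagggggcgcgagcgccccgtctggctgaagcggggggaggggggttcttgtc

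The window of TNRC6A had a GC content of 71.6% and held CCAAT 1 time, and that of TNRC6C had 70.4% and held CCAAT 1 time and ATTGG 1 time. The window of TNRC6B, at 56.4%, held CCAAT 3 times and ATTGG 2 times. Either spelling occurred in 32.01% of the 35116 windows of this length in the table. All 3 windows shown thus carried these letters, for the gene that fell and its paralogs alike, which says nothing of the other TNRC6C windows.

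The TNRC6 genes encode the scaffold proteins that couple Argonaute to deadenylation, and among them TNRC6C alone passed the test. TNRC6C (ENSG00000078687, chromosome 17, 76000249 to 76104916, GRCh37) gave 30.6 CPM in control library 1, 36.7 in control library 2, and 22.3 and 18.4 CPM in the knockdown libraries 1 and 2. Each knockdown value was thus lower than either control value. Its mean went from 33.7 ± 4.27 to 20.3 ± 2.75 CPM (SD, n = 2 each), a log2 fold change of -0.73 (SE 0.13, 95% interval -1.02 to -0.43, edgeR adjusted p = 0.0121). Over the alternatives without a replicate block its adjusted p lay between 4.75e-07 and 0.0301, and with 1 library left out its log2 fold change lay between -0.87 and -0.60.

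TNRC6A (ENSG00000090905, chromosome 16, 24741016 to 24838953) stood at 79.1 and 93.4 CPM in the controls, and 91.4 and 81.2 CPM in the knockdown libraries, with overlapping groups and a log2 fold change of 0.00036 (95% interval -0.25 to 0.25), whose sign turned under other scalings. With GC content and exonic length terms its log2 fold change was 0.21 (95% interval 0.011 to 0.41, edgeR adjusted p = 0.168). TNRC6B (ENSG00000100354, chromosome 22, 40440821 to 40731811) stood at 46.7 and 52.6 CPM and at 50.8 and 43.5 CPM, again overlapping (log2 fold change -0.08, 95% interval -0.32 to 0.17, and 0.22 with both terms, adjusted p = 0.182). The interval of TNRC6C did not reach those of its paralogs. Per kb of exon, the ratio of TNRC6A to TNRC6C was 2.28 and 2.25 in the control libraries and 3.62 and 3.90 in the knockdown libraries, and that of TNRC6B to TNRC6C was 0.843 and 0.793 against 1.26 and 1.31. Within each ratio the libraries of a group lay close together and the groups apart. An exact permutation test of 2 against 2 libraries cannot go below p = 0.333, and no test was run on these ratios.

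The counting ignored strand. TNRC6C shares 1438 bases, 13.0% of its exonic length, with TNRC6C-AS1, a gene on the opposite strand. TNRC6C-AS1, chosen after its values were seen, stood at 23.4 and 18.9 CPM in the controls, and 19.7 and 19.8 CPM in the knockdown libraries (log2 fold change -0.10, adjusted p = 0.702). Its groups overlapped. Reads of the 2 genes cannot be told apart in the shared stretch, and the part of such reads in the TNRC6C values was not tested. A further gene without a symbol, on the same strand, shares 1416 bases with TNRC6C and had 0 fragments in each library. That count does not tell whether reads of the shared bases came from it. DICER1 shares 80 bases (0.633%) with DICER1-AS1, and the other 8 genes share no exonic base with another gene of the table.

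**Figure D1:**
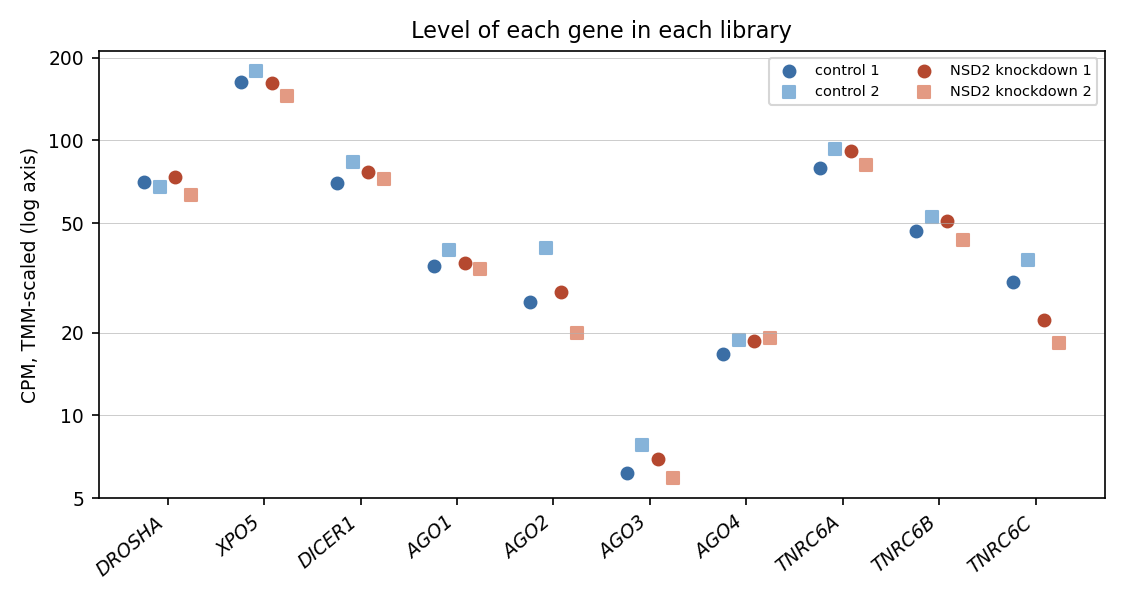
Level of each of the 10 genes in each library, in CPM on TMM-scaled libraries (log axis). Circles are libraries numbered 1 and squares libraries numbered 2, blue for control and red for NSD2 knockdown. Only for XPO5 and TNRC6C do both knockdown points lie below both control points, and the AGO2 points run from 19.98 to 40.8 CPM.

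Among the Argonautes, which hold the guide strand, AGO2 had the lowest log2 fold change and the widest spread, and no member passed the test. AGO2 (ENSG00000123908, chromosome 8, 141541264 to 141645718), the endonuclease of the family, gave 25.8 CPM in control library 1, 40.8 in control library 2, and 28.0 and 19.98 CPM in the knockdown libraries 1 and 2. The groups overlapped, because control library 1 lay below knockdown library 1. The fitted log2 fold change, -0.47 with SE 0.21, had a 95% interval of -0.94 to 0.00027 and an edgeR adjusted p of 0.222. The biological coefficient of variation that edgeR fitted for AGO2 was 15.0%, against 8.003% to 12.2% for the 8 genes other than AGO2 and TNRC6C.

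The value of AGO2 turned on single libraries. With control library 1 left out, the log2 fold change became -0.76 (adjusted p = 0.000183), and without knockdown library 1 it was -0.73 (adjusted p = 0.000882). With control library 2 left out, it became -0.11 (adjusted p = 0.757), and without knockdown library 2 it was -0.25 (adjusted p = 0.604). In those first 2 fits AGO2 joined TNRC6C, so that 2 of the 10 genes were lower, where 7.52% and 4.95% of all tested genes were. AGO2 was also past the threshold with no filter on low counts (adjusted p = 0.00361, 4.71% of all genes lower), at the same log2 fold change of -0.47. Over the alternatives without a replicate block the adjusted p lay between 0.000183 and 0.757. A fit with 1 library left out estimates the spread from 1 group only.

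AGO1 (ENSG00000092847, chromosome 1, 36335409 to 36395211), AGO3 (ENSG00000126070, 36396319 to 36522063) and AGO4 (ENSG00000134698, 36273773 to 36323491) lie side by side on the plus strand of chromosome 1. AGO1 stood at 35.0 and 39.98 CPM in the controls, and 35.8 and 34.0 CPM in the knockdown libraries (log2 fold change -0.10, 95% interval -0.34 to 0.13). AGO3 was the least abundant of the 10 genes, at 6.19 and 7.84 against 6.94 and 5.93 CPM (-0.12, 95% interval -0.51 to 0.26). Its 313 to 370 fragments per library carry a counting error of up to 5.65%, the largest among the 10 genes. AGO4 stood at 16.8 and 18.7 against 18.6 and 19.2 CPM (0.09, 95% interval -0.17 to 0.35). In each of these 3 neighbours the groups overlapped.

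The 3 processing genes act upstream of Argonaute, and none passed the test. DROSHA (ENSG00000113360, chromosome 5, 31400604 to 31532303), the nuclear RNase III, stood at 70.4 and 67.9 CPM in the controls, and 73.5 and 63.5 CPM in the knockdown libraries (log2 fold change -0.01, 95% interval -0.24 to 0.21). XPO5 (ENSG00000124571, chromosome 6, 43490072 to 43543812), the hairpin exporter, stood at 163 and 179 against 162 and 145 CPM. Its groups did not overlap, but control library 1 and knockdown library 1 differed by a log2 ratio of only -0.0077, and the log2 fold change of -0.15 (95% interval -0.38 to 0.07) gave an adjusted p of 0.411. DICER1 (ENSG00000100697, chromosome 14, 95552565 to 95624347), the cytoplasmic RNase III, stood at 69.9 and 83.6 against 76.7 and 72.4 CPM, with overlapping groups (-0.04, 95% interval -0.28 to 0.20).

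For 8 of the 9 genes not past the threshold the 95% interval lay within a 1.5-fold change in either direction. The exception was AGO2, whose interval reached a log2 fold change of -0.94. In simulated counts of the same design, with 2 libraries per group, the procedure found 41.5% of 1.5-fold and 65.2% of 2-fold changes. These rates are averages over 65 and 66 changed genes from the whole simulated table, where a 1.5-fold change was thus often missed. The rate for genes with the counts and spread of the 9 was not worked out, so these averages do not give it. In the authors' deposited table of DESeq2 results, made for a contrast headed M2 vs LUC, TNRC6C had a log2 fold change of -0.70 with an adjusted p of 0.0478, AGO2 had -0.44 with an adjusted p of 0.968, and the adjusted p of each of the other 8 was 1. The libraries of that model are not stated. The deposited base mean of AGO2, 2141, exceeds its highest count here, 1923. HENMT1, a small RNA modification gene, had a deposited base mean of 576 and a mean count of 0 over the 4 libraries here. The model thus drew on counts beyond these 4 libraries, so its adjusted p-values come from an unlike set. It may also have held these libraries, and the table is no independent replicate.

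**Figure D2:**
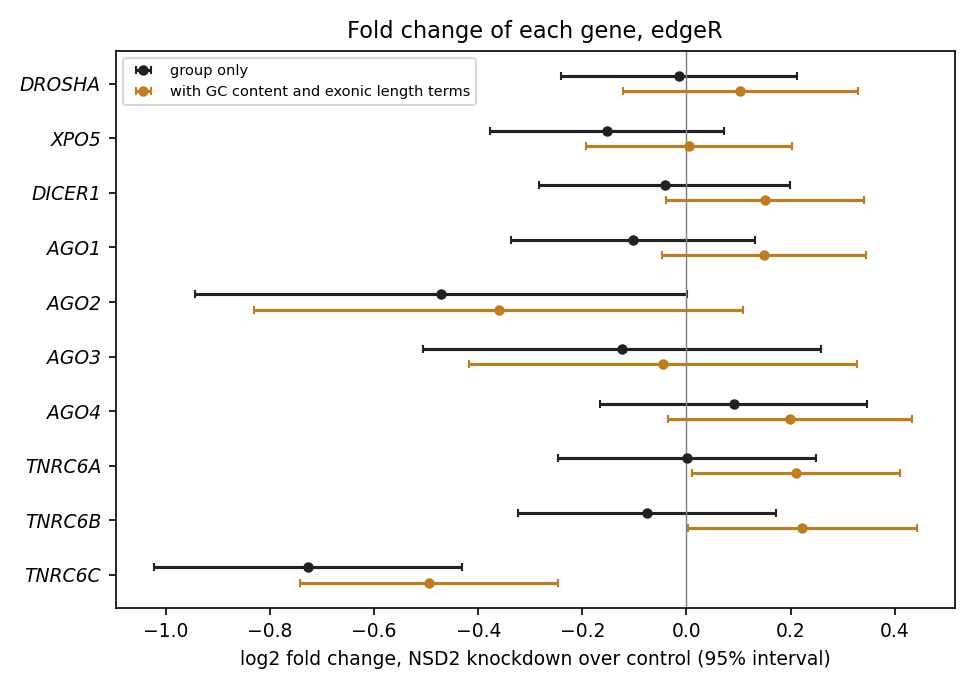
Log2 fold change of each gene, NSD2 knockdown over control, with its 95% interval from edgeR (2 libraries per group). Black points are the fit with the group alone and ochre points the fit with GC content and exonic length terms. The TNRC6C interval lies below 0 in both, and 7 of the 10 ochre points lie above 0.

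The 10 genes are long in exonic sequence, counted per gene and not per transcript. Most of their small fold changes turned sign in the fit that took length and GC content into account. Exonic lengths ran from 4.82 kb for AGO2 to 19.997 kb for TNRC6B, and 61.1% of all tested genes were shorter than the shortest of them. With the group alone 8 of the 10 log2 fold changes lay below 0 (median -0.09, against -0.0016 for all tested genes), and with GC content and exonic length terms 7 of 10 lay above 0 (median 0.13, against 0.07). The median log2 fold change of all tested genes at least as long as AGO2 was -0.05 and that of the shorter genes 0.03. TNRC6C was called lower in the fit with these terms too (log2 fold change -0.50, adjusted p = 0.0301, 3.82% of all genes lower), and 0 of the 10 genes were called higher (4.20% of all genes). Over all genes there were 299 higher and 719 lower calls among 17172 genes with the group alone, and 694 higher and 632 lower among the 16533 genes that could be fitted with the terms.

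The libraries also ordered the 10 genes alike. Control library 2 was the highest of the 4 libraries for 8 of the 10 genes, and knockdown library 2 was the lowest for 7. Between the libraries numbered 1, 8 of the 10 genes were higher in the knockdown library. Between the libraries numbered 2, 1 of 10 was higher there, AGO4. The median log2 ratio of library 2 over library 1 for the 10 genes was 0.22 in the control group and -0.19 in the knockdown group, against 0.06 and -0.02 for all tested genes at least as long as AGO2. TNRC6C lay lower in the knockdown library at both numbers (log2 ratios of -0.46 and -0.996). Whether library preparation or RNA quality took part in this order was not tested.

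**Figure D3:**
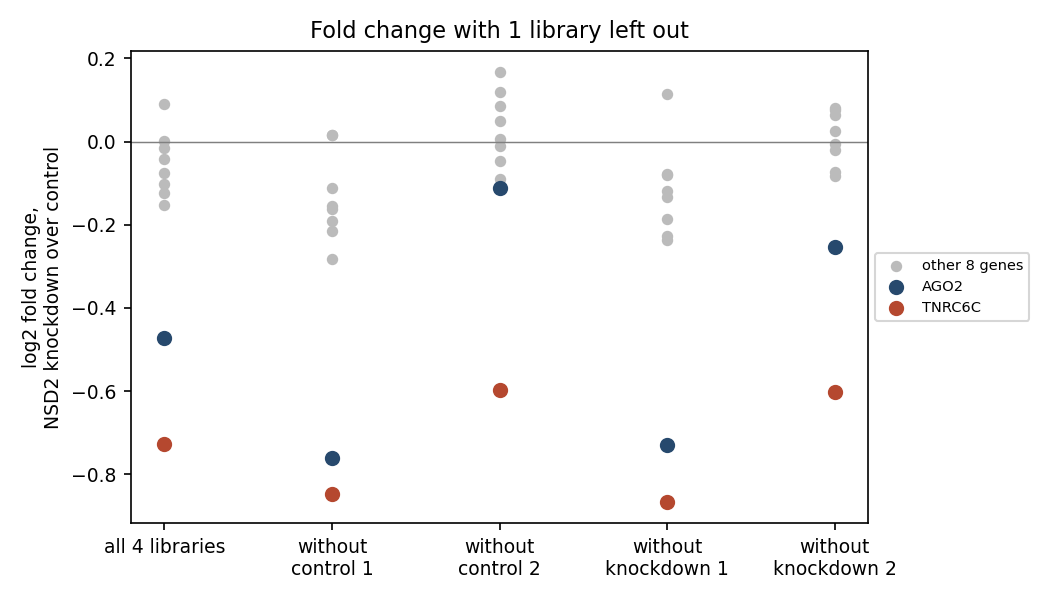
Log2 fold change, NSD2 knockdown over control, of the 10 genes with all 4 libraries and with each library left out. TNRC6C stays between -0.87 and -0.60 in the fits that leave out 1 library, while AGO2 runs from -0.76 to -0.11.

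Levels of different genes were compared per kb of exonic length, as CPM per kb. This length is that of the annotated exons of a gene, not of the transcripts made, and the order depends on it. For TNRC6C it includes the 1438 and 1416 bases shared with other genes. Their effect on its level per kb, its share and its ratios was not tested. In the control libraries the order was XPO5 (20.04 ± 1.34), DROSHA (8.89 ± 0.230), AGO2 (6.90 ± 2.20), TNRC6A (6.89 ± 0.809), DICER1 (6.07 ± 0.766), TNRC6C (3.04 ± 0.387), AGO1 (2.91 ± 0.272), TNRC6B (2.48 ± 0.209), AGO4 (2.44 ± 0.192) and AGO3 (1.26 ± 0.209; SD, n = 2 each). The exporter thus stood highest and AGO3 lowest. The SD ranges of AGO2, TNRC6A and DICER1 touched, as did those of neighbours among TNRC6C, AGO1, TNRC6B and AGO4. All genes were measured in the same libraries, and the SDs do not take this pairing into account. Within each library TNRC6A lay above DICER1, and AGO1 lay above TNRC6B. The steps from XPO5 to DROSHA, from DICER1 to TNRC6C and from AGO4 to AGO3 exceeded the SDs of both genes. In the knockdown libraries TNRC6C stood at 1.84 ± 0.248 CPM per kb, below TNRC6B (2.36 ± 0.258), AGO4 (2.6004 ± 0.0495) and AGO1 (2.71 ± 0.0981).

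Within the Argonaute family AGO2 made up the largest share of the summed CPM per kb in every library, with 46.6% and 54.4% in the controls and 46.9% and 39.5% in the knockdown libraries. AGO1 gave 21.8% ± 2.62, AGO4 18.3% ± 2.48 and AGO3 9.35% ± 0.435 of the sum in the controls, and 23.8% ± 1.97, 22.9% ± 3.15 and 10.1% ± 0.0720 in the knockdown libraries (SD, n = 2 each). Without division by length, AGO1 rather than AGO2 had the larger mean share in the controls (39.5% against 34.4%). Among the TNRC6 genes TNRC6C gave 24.3% and 24.7% of the family sum in the controls and 17.0% and 16.1% in the knockdown libraries. The share of TNRC6A was 55.3% and 55.6% in the controls and 61.6% and 62.8% in the knockdown libraries, while TNRC6B stayed between 19.6% and 21.4%. The libraries of a group thus differed little in the TNRC6 shares, while the AGO2 share varied within both groups.

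The summed level of the TNRC6 family was 12.4 ± 1.405 CPM per kb in the controls and 11.1 ± 1.08 in the knockdown libraries, and that of the Argonautes 13.5 ± 2.87 and 11.4 ± 1.36. Their ratio, Argonaute over TNRC6, was 1.00 and 1.16 in the controls and 1.05 and 1.01 in the knockdown libraries, with overlapping groups. The groups thus lay apart in the share of TNRC6C, while the TNRC6 sums of 11.4 and 13.4 CPM per kb in the controls overlapped those of 11.8 and 10.3 in the knockdown libraries. Fewer cells that express a gene and less RNA per cell cannot be told apart in such bulk samples.

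**Figure D4:**
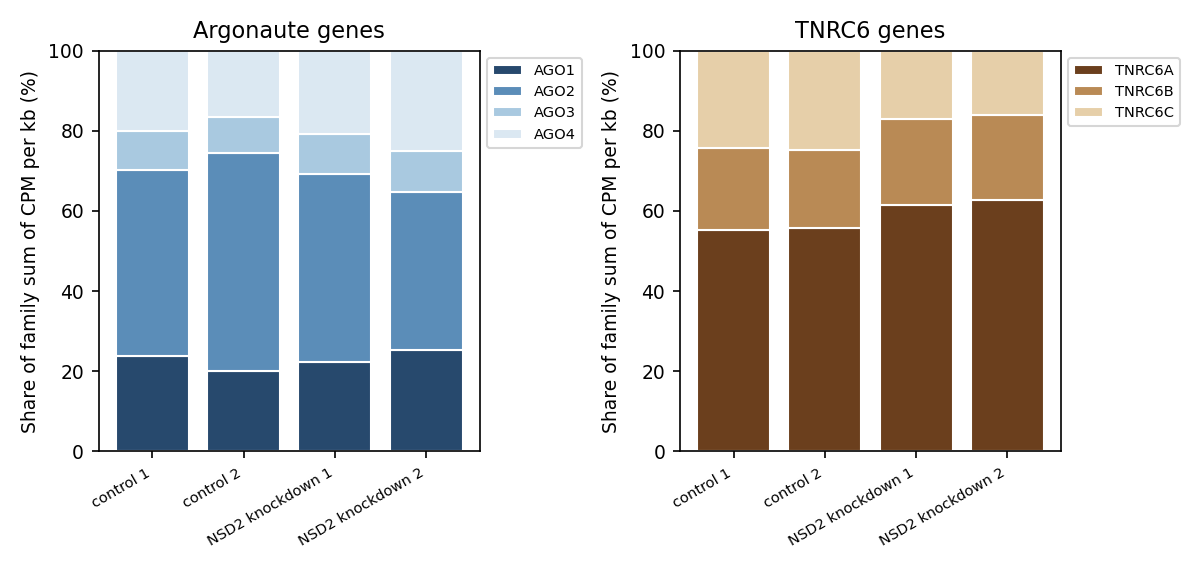
Share of each gene in the summed CPM per kb of its family, in percent, for each library (stacked bars to 100%). The topmost segment on the right, TNRC6C, takes 24.3% and 24.7% in the control libraries and 17.0% and 16.1% in the knockdown libraries, and the AGO2 segment on the left is largest in control library 2.

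The other genes of the small RNA pathway were read from 9 lists with 154 genes, of which 152 were matched and 124 tested. Of these 1 rose and 3 fell, against 1.74% and 4.19% of all tested genes, and their median log2 fold change was 0.04. In 5 lists no gene passed the test: 0 of 8 partners of DROSHA, 0 of 4 nuclear export genes, 0 of 16 partners of DICER1 and Argonaute loading factors, 0 of 13 cofactors of the silencing complex and 0 of 19 deadenylation genes. At an unadjusted p below 0.05 by edgeR these lists held 3, 0, 1, 0 and 3 genes, where 22.5% of all tested genes stood. By DESeq2 BTG2 was the single call in the 5 lists, against 2.26% of all its genes higher and 4.63% lower.

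Among these partners, DGCR8, the RNA-binding partner of DROSHA, stood at 44.05 and 47.6 CPM in the controls, and 49.5 and 44.3 CPM in the knockdown libraries (log2 fold change 0.03, adjusted p = 0.877). The smallest p in its list was that of the splicing factor gene SRSF3, at 320 and 318 against 370 and 407 CPM (log2 fold change 0.29, adjusted p = 0.118). TARBP2, which encodes the RNA-binding partner of DICER1, stood at 54.5 and 53.1 against 65.1 and 71.7 CPM. Its groups did not overlap, and it had a log2 fold change of 0.35 (SE 0.095) and an edgeR adjusted p of 0.0646, with a range over the alternatives of 0.0299 to 0.496. BTG2, an antiproliferative factor that binds the CCR4-NOT deadenylase, stood at 435 and 552 against 588 and 830 CPM (log2 fold change 0.52, adjusted p = 0.0997, range 1.27e-05 to 0.547). CNOT1, the scaffold of that deadenylase, stood at 431 and 484 against 423 and 362 CPM (log2 fold change -0.22, adjusted p = 0.282). The smallest p among the export genes was that of RANBP1 (log2 fold change 0.18, adjusted p = 0.369), and among the cofactors that of DDX20 (0.28, adjusted p = 0.232).

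In the decapping and decay list 1 of 16 tested genes fell and 0 rose. XRN1, the exonuclease that degrades decapped RNA in the 5′ to 3′ direction, stood at 65.5 and 68.1 CPM in the controls, and 50.6 and 45.5 CPM in the knockdown libraries. Neither knockdown value reached either control value (log2 fold change -0.48, SE 0.097, adjusted p = 0.0205). The call of XRN1 was lost without knockdown library 2 (log2 fold change -0.41) with GC content and exonic length terms (-0.30) and with the length term alone (-0.28), with adjusted p between 0.000786 and 0.139 across alternatives.

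Among 17 tested genes for small RNA modification and turnover, 1 fell and 0 rose. ADARB2, a brain-enriched relative of the adenosine deaminases that act on double-stranded RNA, had 110 and 180 fragments in the controls and 21 and 18 in the knockdown libraries, or 2.17 and 3.82 against 0.434 and 0.331 CPM (log2 fold change -2.96, SE 0.34, adjusted p = 0.00162). Its level was low in both groups. ADAR, the main deaminase, stood at 1045 and 1164 against 996 and 895 CPM (log2 fold change -0.22, adjusted p = 0.250). TUT4 and TUT7, the uridylyltransferases of microRNA precursors, did not pass the test (log2 fold changes -0.05 and -0.31, adjusted p = 0.812 and 0.111). LIN28B, which blocks maturation of the let-7 family, had 0 fragments in each library, and LIN28A had 1 fragment in control library 2 alone. The limit that a count of 0 allows is 3 fragments, or 0.0545 to 0.0642 CPM, and it covers counting error only.

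The PIWI clade, the germline Argonautes, was at or near 0. None of the 8 genes in its list passed the filter. PIWIL1 and PIWIL3 had 0 fragments in each library, PIWIL2 had 10, 7, 2 and 4, and PIWIL4 had 5, 2, 7 and 2 (control 1, control 2, knockdown 1 and knockdown 2).

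Host genes of microRNAs were measured only as long transcripts, and the mature microRNAs are not part of these data. Of 31 tested host genes 1 rose and 1 fell. EGFL7, host of miR-126, rose from 2.87 and 2.08 to 8.64 and 8.89 CPM (log2 fold change 1.82, SE 0.19, adjusted p = 0.000891). TLN2, a talin gene and host of miR-190a, fell from 4.07 and 4.30 to 2.77 and 2.03 CPM (log2 fold change -0.81, adjusted p = 0.0497). The TLN2 call was lost under 6 alternatives, among them the fit without knockdown library 2 (log2 fold change -0.60) and that with GC content and exonic length terms (-0.51), with adjusted p between 0.00257 and 0.306. In both host genes the groups did not overlap. MIR17HG, the host of the miR-17 cluster, stood at 5.77 and 6.06 against 6.59 and 7.90 CPM (log2 fold change 0.29, adjusted p = 0.307).

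For each host transcript that passed the test, 1 mature microRNA is given below from RefSeq (GRCh38.p14), since these short RNAs are what the machinery makes from such transcripts. Capitals mark the seed, bases 2 to 8. The seeds of the 2 loci differ.

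hsa-miR-126-3p (host EGFL7, chr9:136670653-136670674, plus strand): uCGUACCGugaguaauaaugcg
hsa-miR-190a-5p (host TLN2, chr15:62823971-62823992, plus strand): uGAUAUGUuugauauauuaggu

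**Figure D5:**
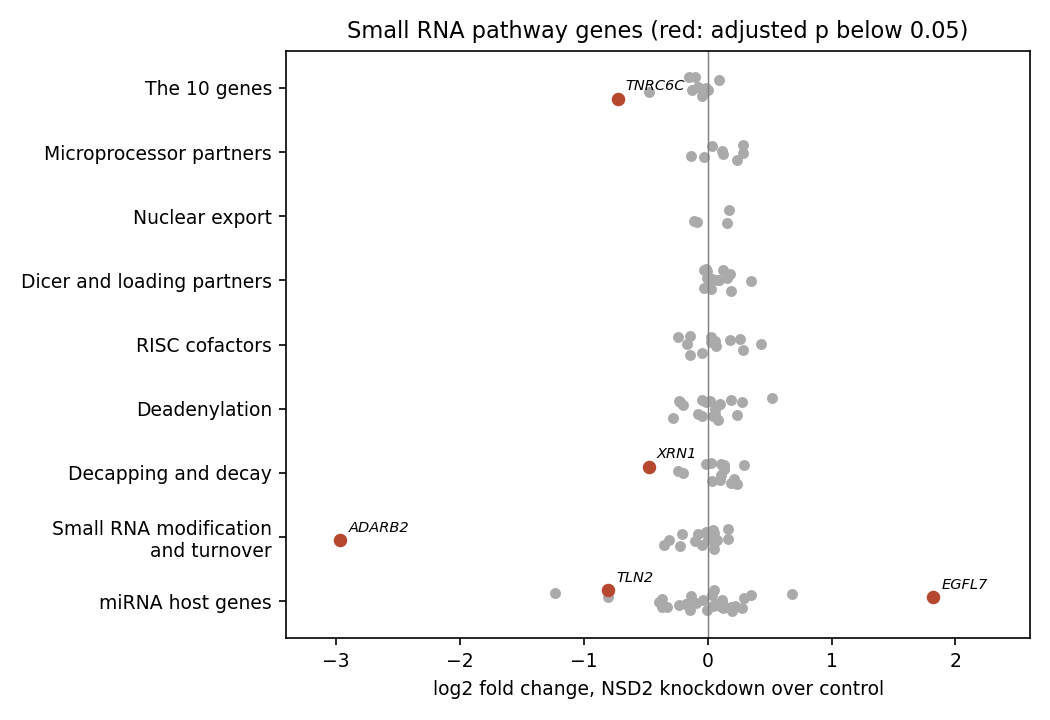
Log2 fold change, NSD2 knockdown over control, of the 10 genes and of the tested genes in 8 lists of the small RNA pathway (1 point per gene, vertical scatter without meaning). Red points are past the adjusted p of 0.05: TNRC6C at -0.73, XRN1 at -0.48, ADARB2 at -2.96, TLN2 at -0.81 and EGFL7 at 1.82.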

How the data were processed

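The deposited count files hold raw fragment counts per Ensembl gene and library. Per the submitters' processing notes the authors used Trim Galore 0.3.7, STAR 2.5.3, Picard and featureCounts of Subread 1.4.6 on GRCh37. Per the file headers, counting was unstranded, on alignments named as without duplicates. The authors' deposited DESeq2 table gives log2 fold changes, p-values and adjusted p-values, a base mean (a normalized signal) and the exonic length of each gene. The 4 per-library columns of that table stayed out of every step, as did 1 empty line in each count file.

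All genes were fitted with edgeR 4.0.16 in R 4.3.3 (quasi-likelihood F test, TMM scaling, default filter, a group term alone), with Benjamini-Hochberg adjustment over 17172 genes. CPM is the count divided by the TMM-scaled library size. GC content came from GENCODE 29 transcripts, matched by identifier for 96.3% of tested genes. Alternatives were other scalings, filters, DESeq2 1.42.0, limma-voom (limma 3.58.1), robust empirical Bayes, a replicate block, GC content and length terms, and leaving out each library. Tests on simulated data recovered 41.5%, 65.2% and 96.9% of 1.5-fold, 2-fold and 4-fold changes among 16877 genes, where 6 of 138 calls were false. Data simulated without any change gave 2 calls. With a simulated GC and length trend, the terms brought false calls from 2872 among 3024 calls to 26 among 166. That trend was set in the same measures that the terms fit, so its removal was built in. It raised long genes in the knockdown libraries, while long genes stood lower there in the data, and its size was not matched to the data.

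The rule for the members names symbols and uses no measured value, but members and lists were chosen with earlier results of these data known. The named genes are the 10 members, NSD2 and, in each list, up to 3 genes that rose and 3 that fell, or the gene of smallest p where none passed. DGCR8, CNOT1, ADAR, TUT4, TUT7, HENMT1, the LIN28 and PIWI genes, MIR17HG and TNRC6C-AS1 were named after their values were seen. Figures were drawn with matplotlib 3.10.9.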

Additional observations from a re-analysis of the deposited data

How the results depend on the processing

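TNRC6C stayed lower and past the threshold under each of the 16 alternatives. The 10 genes had 2 lower calls (TNRC6C and AGO2) with no filter and 1 to 2 with 1 library left out. Other pathway genes called higher and lower numbered 4 and 6 with no filter, 2 and 5 by DESeq2, 4 and 1 with GC content and exonic length terms, 3 and 1 with the length term alone, and 1 to 3 and 1 to 9 with 1 library left out. All genes numbered 658 higher and 1490 lower with no filter, 694 higher with GC content and length terms, 633 higher with length alone, and 173 to 682 higher and 649 to 1342 lower with 1 library left out. The labels do not say that equal replicate numbers pair libraries, and deviations of equal-numbered libraries correlated at 0.236 over genes in only 2 pairs. With a replicate block 2 of the 10 genes were lower (TNRC6C, adjusted p = 2.32e-05, and AGO2, 0.0347), NSD2 was lower too (0.0197), 8 other pathway genes were higher and 11 lower, and 1327 of all genes were higher and 1992 lower. With the block and GC content and length terms these counts were 2 lower (TNRC6C and AGO2, the latter at adjusted p = 0.0135) and 2 higher (TNRC6A, 0.0206, and TNRC6B, 0.0164), 38 higher and 9 lower, and 3237 higher and 1847 lower. Log2 fold changes near 0 changed sign. With GC content and length terms, with length alone and with the block added to both terms, they were 0.10, 0.11 and 0.10 for DROSHA, 0.15, 0.17 and 0.15 for DICER1, 0.15, 0.11 and 0.15 for AGO1 and 0.22, 0.22 and 0.22 for TNRC6B. With both terms, without and with the block, XPO5 had 0.0051 and 0.0036 and NSD2 had 0.025 and 0.013. TNRC6C-AS1 had 0.0020 with the block and both terms. TNRC6A had -0.00079 by RLE scaling, -0.014 by upper-quartile scaling, -0.018 by library size, -0.00078 with no filter, -0.011 with a filter of 1 CPM and -0.00078 by DESeq2. With 1 library left out the ranges were -0.12 to 0.081 for DROSHA, -0.16 to 0.086 for DICER1, -0.28 to 0.049 for AGO3, -0.11 to 0.12 for TNRC6A, -0.19 to 0.026 for TNRC6B and -0.25 to 0.069 for TNRC6C-AS1. Without division by length the control shares were 39.5% for AGO1, 34.4% for AGO2, 7.35% for AGO3, 50.8% for TNRC6A, 29.3% for TNRC6B and 19.8% for TNRC6C. The cause of these changes was not tested. With 2 libraries per group the spread is poorly known, and a fit without 1 library assumes that the lone sample varies like the other group.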
